A study of Mus musculus with 2 samples.

Results

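Actin filaments and the proteins that build, cut, bundle and pull on them were examined in mouse bone marrow-derived macrophages (primary macrophages grown from C57BL/6 marrow). The set was 41 genes of the actin cytoskeleton and contractile apparatus, chosen by symbol out of 34745 gene identifiers in the table, and all 41 were found there. Both cultures were transfected with an antisense oligonucleotide (ASO, a short synthetic nucleic acid that binds a chosen RNA) and exposed to LPS (lipopolysaccharide, a component of bacterial walls known to activate these cells). They differed in the oligonucleotide, Control-ASO in one and AclyE14-ASO, named for the ATP-citrate lyase gene Acly, in the other. Each condition was 1 library, so no difference below has a replicate check, no test was run and no p-value is given. The sources used here give no dose or duration of LPS and no number of mice behind each culture, so the spread between cultures is unknown.

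The members were placed in 3 classes. The smooth-muscle-type class held 7 genes (Acta2, Tagln, Myl9, Cnn1, Cald1, Tpm1 and Tpm2), the leukocyte-enriched class 4 genes (Lcp1, Coro1a, Capg and Arpc1b), and the general class the other 30. As background, actin monomers are held in reserve by thymosins and profilin, nucleated into branched filaments by the Arp2/3 complex, cut and recycled by cofilin, and bundled or cross-linked by fascin, plastin, alpha-actinin and filamin. Macrophages use this machinery for spreading, migration and phagocytosis. In smooth muscle cells and myofibroblasts, alpha smooth muscle actin, transgelin, calponin, caldesmon and particular tropomyosins form contractile bundles, and the transcription factor SRF with its MRTF cofactors is known to drive many of these genes.

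The libraries held 14215397 (Control-ASO) and 12751076 (AclyE14-ASO) gene counts. Levels are the authors' FPKM. Log2 ratios are of FPKM + 1, AclyE14-ASO over Control-ASO, which understates the difference of low genes. Count ratios are ratios of counts per library total, with exact (Clopper-Pearson) 95% intervals that cover counting error only. A gene was measured if its mean was at least 1 FPKM (8658 genes) and was called higher or lower at 1.5-fold on FPKM + 1. Over all expressed genes the median log2 ratio was -0.13. Acly itself had 1549 counts (13.3 FPKM) in the Control-ASO library against 768 (7.35 FPKM) in the other, 44.7% lower per library total. All 12 macrophage markers examined were measured, with summed levels of 12876 and 16229 FPKM, most of it Lyz2 (9798 and 12276 FPKM). They did not move alike: Itgam, Cd14, Fcgr1 and Laptm5 were higher (count ratios 4.74, 2.23, 1.965 and 1.59), Cd68 was lower (0.557), and 7 lay between, Csf1r, Adgre1, Spi1 and Ptprc with ratios of 0.784 to 0.883.

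The share of higher members differed by class, and class went with abundance. Of the 41 members, 11 were higher by 1.5-fold in the AclyE14-ASO library, 0 were lower and 30 lay between. Among all expressed genes 7.03% were higher and 8.48% lower by the same limits. The members and the lists below were chosen with earlier results of these data known, so these shares serve as description only. At 2-fold, 9 members were higher and 0 lower, against 3.18% and 1.55% of all genes. Most of the higher members were of low or middle abundance: 9 of the 22 members with a mean under 50 FPKM were higher, where 6.84% of genes of that level were higher and 8.61% lower. Of the 19 members at 50 FPKM or more, 2 were higher, where 8.76% of genes were higher and 7.26% lower. The smooth-muscle-type class had 5 of 7 members higher and a median log2 ratio of 1.15, the leukocyte-enriched class 1 of 4 with a median of 0.31, and the general class 5 of 30 with a median of 0.14. All 7 smooth-muscle-type members had a mean under 50 FPKM (Tagln highest, 42.3). The higher general members Fscn1, Cnn3, Zyx and Cnn2 were also under 50 FPKM. The part of abundance in the difference between classes was not tested. With a pseudocount of 5 FPKM the smooth-muscle-type count was 3 of 7, since Cald1 and Tpm2 were no longer past the limit. All 41 members passed the limit of 1 FPKM, but Cald1 and Cnn1 were under it in the control library, and without these the count was 10 of 39. By counts alone, with no pseudocount, 13 members were at 1.5-fold or more and all 7 smooth-muscle-type members were among them. Across the set, 29 log2 ratios were above 0 and 12 below, and 33 members lay above the median gene. The counting interval lay above an even ratio for 27 members and below it for 11, and it included an even ratio for Tpm4, Ezr and Myl6. Together the members took 1.95% of gene counts in the Control-ASO library and 2.20% in the AclyE14-ASO library.

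**Figure D1:**
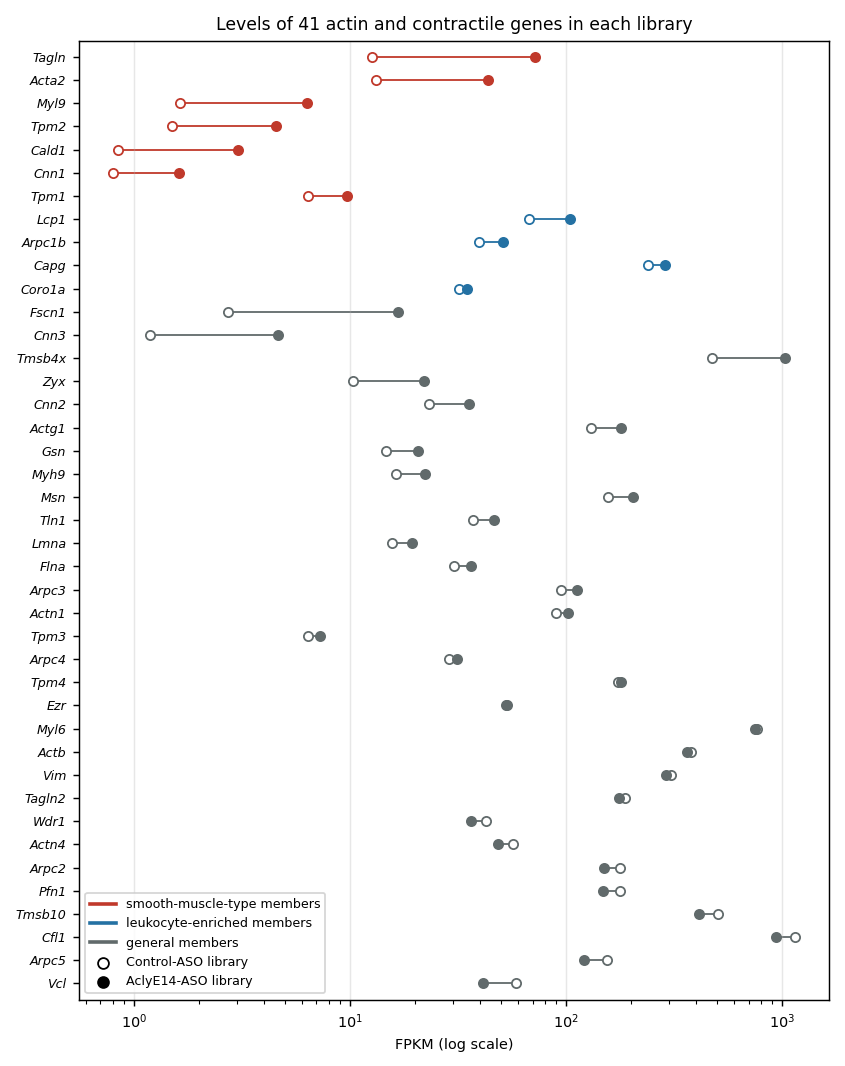
FPKM of each of the 41 members (rows, by class) on a log axis, with open circles for the Control-ASO library and filled circles for the AclyE14-ASO library, 1 library each. The 7 smooth-muscle-type genes lie between 0.802 FPKM (Cnn1, control) and 71.9 FPKM (Tagln, AclyE14-ASO) and all move to the right, while the abundant genes Myl6 and Actb hardly move.

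Smooth-muscle-type genes had the highest median log2 ratio of the 3 classes (1.15), while the highest count ratio was that of the general member Fscn1 (6.09). Tagln encodes transgelin (SM22), an actin-bundling protein of smooth muscle and fibroblasts (ENSMUSG00000032085, chromosome 9, 45929619 to 45936058, minus strand, GRCm38). The Control-ASO library gave 285 counts (12.6 FPKM) and the AclyE14-ASO library 1455 counts (71.9 FPKM). The count ratio was 5.69 (interval 5.01 to 6.48), and its log2 ratio was above those of 99.9% of expressed genes. Acta2, the alpha smooth muscle actin gene (ENSMUSG00000035783, chromosome 19, 34241090 to 34255590, minus strand), was at 13.3 FPKM from 336 counts and 43.7 FPKM from 992 counts, a count ratio of 3.29 (2.91 to 3.74). Both genes were clearly present in the control library too.

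The other smooth-muscle-type genes were less abundant. Myl9, a regulatory light chain of smooth muscle and non-muscle myosin II, was at 1.64 and 6.33 FPKM (49 and 170 counts, ratio 3.87, 2.80 to 5.43). Cald1, the gene for caldesmon, which restrains myosin on actin, was at 0.850 and 3.02 FPKM (287 and 915 counts, ratio 3.55, 3.11 to 4.07). Tpm2, the beta-tropomyosin gene, was at 1.504 and 4.57 FPKM (119 and 324 counts, ratio 3.04, 2.45 to 3.78). These 3 genes thus had count ratios near that of Acta2, with intervals that overlap its interval.

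The remaining pair of this class lay just under the limit. Cnn1, the calponin of differentiated smooth muscle, was the least abundant member, with 27 and 49 counts (0.802 and 1.62 FPKM). Its ratio of 2.02 has a wide counting interval of 1.24 to 3.37. Tpm1, a tropomyosin gene with many isoforms in muscle and other cells, was at 6.42 and 9.66 FPKM (1509 and 2037 counts, ratio 1.505, 1.41 to 1.61). On FPKM + 1 their log2 ratios were 0.54 and 0.52, against a limit passed most narrowly by Cnn2 at 0.61 and Lcp1 at 0.63.

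**Figure D2:**
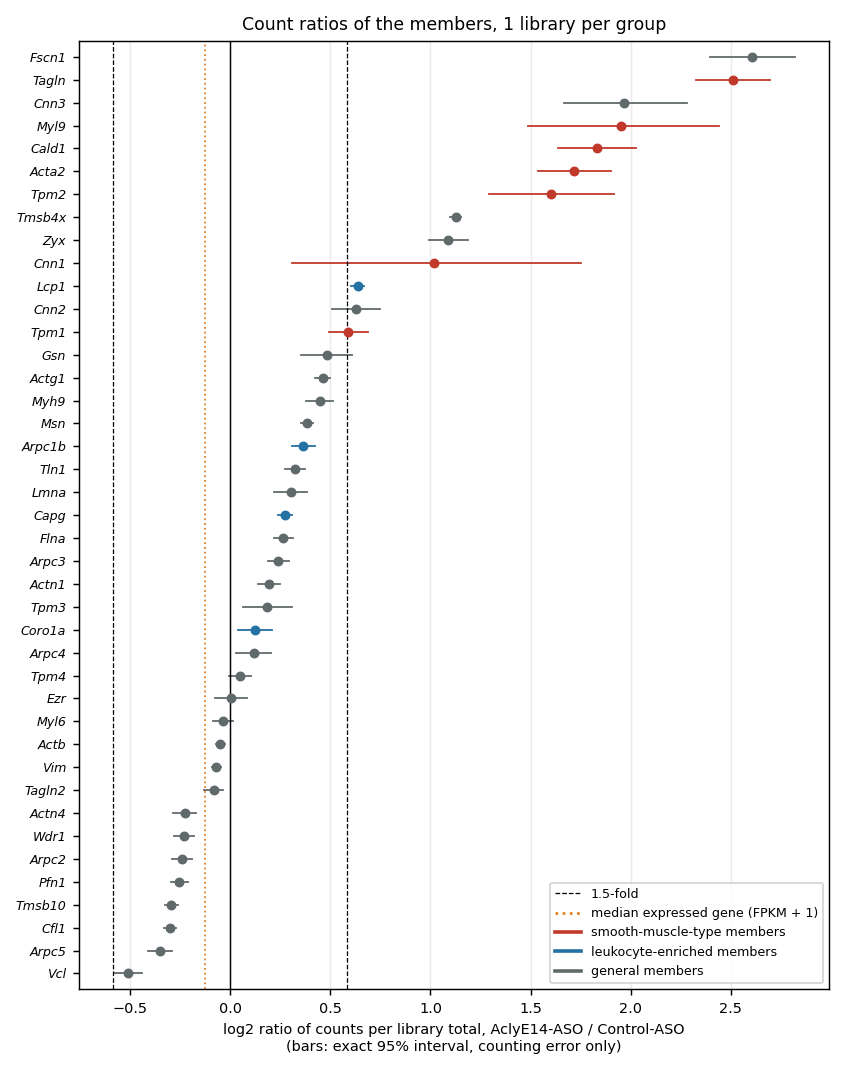
Log2 ratio of counts per library total for each member, ordered by size and coloured by class, with bars for the exact 95% counting interval and lines at no difference, at 1.5-fold and at the median expressed gene. Fscn1 and Tagln lead with count ratios of 6.09 and 5.69, and Vcl is last at 0.702.

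Actin monomers and the proteins that hold them differed by isoform. Actb and Actg1, the cytoplasmic beta- and gamma-actins found in nearly all cells, did not move alike. Actb was at 377 and 364 FPKM (31642 and 27430 counts, ratio 0.966, 0.951 to 0.982), and Actg1 at 131 and 180 FPKM (11596 and 14316 counts, ratio 1.38, 1.34 to 1.41). Both lay within 1.5-fold. When centred on the median gene, the log2 ratio of Actb turned positive (0.08) and that of Actg1 passed the limit (0.59). The larger difference was in Tmsb4x, which encodes thymosin beta 4, the main sequesterer of actin monomers (ENSMUSG00000049775, X chromosome, 167207093 to 167209315, minus strand). It was at 474 and 1033 FPKM (14139 and 27668 counts, ratio 2.18, 2.14 to 2.23), whereas its relative Tmsb10, thymosin beta 10, was at 505 and 412 FPKM (15807 and 11570 counts, ratio 0.816, 0.797 to 0.836). The profilin gene Pfn1 was on the low side as well, at 177 and 149 FPKM (10554 and 7936 counts, ratio 0.838).

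The actin genes are similar enough in sequence to ask whether reads could be shared. The coding sequence of Acta2 was 83.2% identical to that of Actb and 81.9% to that of Actg1, and Actb and Actg1 were 88.7% identical. The longest run that Acta2 shares with Actg1 is shown for that reason, at bases 910 to 965 of the Acta2 coding sequence (GENCODE M21), with the 47 bases also found in Actb in capitals.

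Acta2 coding run shared with Actg1: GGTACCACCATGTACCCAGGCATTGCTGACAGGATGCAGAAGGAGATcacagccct

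Outside such runs the genes can be told apart. Only 0.326% of the 50-base windows of the annotated Acta2 transcripts occurred in transcripts of another gene, on either strand, and 0% for Myl9, Cnn1, Cald1, Tpm1, Tpm2, Fscn1 and Tmsb4x. For Tagln the share was 58.3%, of which 55.4% lay in the antisense gene Gm48529 of GENCODE M21, not analysed here, and 2.98% in Pcsk7. Pcsk7, on the other strand, overlaps Tagln over 108 exon bases and had 797 and 661 counts. Tagln and its paralog Tagln2 shared no identical run of more than 15 bases. Among the rest, 37.4% of Actg1 windows occurred in some other gene, 14.5% in the pseudogene Actg-ps1 (114 and 113 counts), and Tmsb10 shared 21.6% with Gm9844 (627 and 479 counts). The summed counts of each pair had ratios of 1.37 and 0.817, close to those of the members alone.

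The members that sever or cap filaments all lay within 1.5-fold. Cfl1, the cofilin gene, had the highest mean FPKM of the set, with 1151 and 934 FPKM (18777 and 13674 counts, ratio 0.812, 0.794 to 0.830). Wdr1, which helps cofilin take filaments apart, was at 42.7 and 36.4 FPKM (ratio 0.853). The other members of this group were higher in the AclyE14-ASO library. Gsn, the severing protein gelsolin, was at 14.8 and 20.6 FPKM (ratio 1.40, 1.28 to 1.52), and Capg, a filament-capping protein of macrophages, at 239 and 289 FPKM (ratio 1.21, 1.18 to 1.24).

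Subunits of the Arp2/3 complex had no common direction. Arpc2 was at 178 and 150 FPKM (ratio 0.847), and Arpc5 at 154 and 121 FPKM (ratio 0.783, 0.752 to 0.817). Arpc1b, the subunit that predominates in blood cells, was at 39.5 and 50.9 FPKM (ratio 1.29, 1.24 to 1.34), Arpc3 at 95.1 and 112 FPKM (ratio 1.18) and Arpc4 at 28.9 and 31.3 FPKM (ratio 1.08). Arpc1b overlaps Pdap1 on the opposite strand, and their summed counts had a ratio of 1.24. Coro1a, the leukocyte coronin that regulates Arp2/3, was at 31.9 and 34.8 FPKM (2347 and 2294 counts, ratio 1.09, 1.03 to 1.15). None of these 6 genes reached 1.5-fold.

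Filament cross-linkers included the member with the highest count ratio. Fscn1 encodes fascin, which packs filaments into filopodial bundles and is known from mature dendritic cells and motile mesenchymal cells (ENSMUSG00000029581, chromosome 5, 142960343 to 142973185, plus strand). It was at 2.74 FPKM from 216 counts and at 16.7 FPKM from 1179 counts, a ratio of 6.09 (5.26 to 7.07). Lcp1, the leukocyte plastin, was at 67.2 and 104 FPKM (12575 and 17533 counts, ratio 1.55, 1.52 to 1.59) and was the only leukocyte-enriched member called higher. Actn1, Actn4 and Flna (alpha-actinins and filamin A) had ratios of 1.14, 0.854 and 1.202. Of the 8 dendritic cell markers, Flt3, Xcr1 and Cd209a had 0 counts in both libraries, Clec9a 3 and 0, and Dpp4 2 and 3. Ccr7, a marker of mature dendritic cells, had 9 and 14 counts, and Zbtb46 had 13 and 25 (ratio 2.14, 1.06 to 4.56). Among these markers Itgax alone was measured (9097 and 9001 counts), and macrophages express it too. The fibroblast markers described below summed to 28.1 and 126 FPKM. The part of dendritic cells or of mesenchymal cells in the Fscn1 level was not tested.

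Calponin and transgelin relatives outside smooth muscle were mixed. Cnn3, the acidic calponin, a broadly expressed non-muscle form, was at 1.19 and 4.64 FPKM (114 and 400 counts, ratio 3.91, 3.17 to 4.86). Cnn2, the calponin that macrophages are known to express, was at 23.1 and 35.7 FPKM (957 and 1327 counts, ratio 1.55, 1.42 to 1.68), and the limit of 1.5-fold lies inside its counting interval. Tagln2, the transgelin of blood and other non-muscle cells, was at 187 and 177 FPKM (7970 and 6755 counts, ratio 0.945), so it did not share the higher level of Tagln. Of the other tropomyosins, Tpm4 was at 174 and 179 FPKM (ratio 1.03, 0.994 to 1.07) and Tpm3 at 6.37 and 7.24 FPKM (ratio 1.14). Tpm3 shares 23.2% of its windows with Tpm3-rs7, a related gene listed at 175 and 203 FPKM (5248 and 5450 counts), so reads of these may be split between them. Their sum had a ratio of 1.15 (1.11 to 1.195).

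Among the remaining myosin, adhesion and intermediate filament genes, only Zyx was past 1.5-fold. Myl6, the essential light chain of non-muscle myosin, was at 766 and 748 FPKM (ratio 0.976, 0.944 to 1.01), and Myh9, the heavy chain of non-muscle myosin IIA, at 16.4 and 22.4 FPKM (ratio 1.36, 1.302 to 1.43). Among proteins of focal adhesions, Zyx (zyxin, which responds to tension on filaments) was higher, at 10.4 and 22.0 FPKM (1322 and 2521 counts, ratio 2.13, 1.99 to 2.27). Vcl (vinculin) was at the opposite end of the set, at 58.7 and 41.2 FPKM (4363 and 2746 counts, ratio 0.702, 0.669 to 0.736). It was not past 1.5-fold. It overlaps Ap3m1 on the other strand, and the sum of both had a ratio of 0.718. Tln1 (talin) was at 37.3 and 46.7 FPKM, and the membrane linkers Msn (moesin) and Ezr (ezrin) at 156 and 204 FPKM and at 52.9 and 53.1 FPKM. Vim (vimentin) was at 306 and 291 FPKM (33972 and 29017 counts, ratio 0.952) and Lmna (lamin A/C) at 15.7 and 19.4 FPKM (ratio 1.23). Both intermediate filament genes lay within 1.5-fold.

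**Figure D3:**
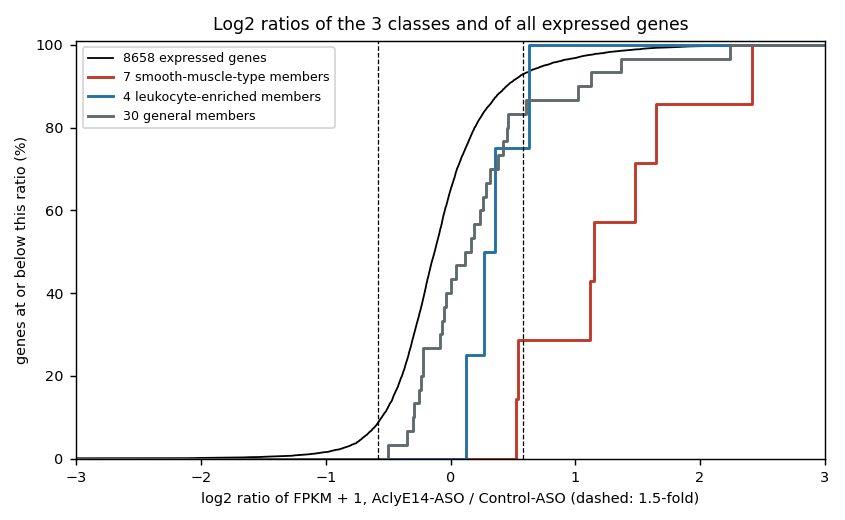
Cumulative share of genes (%) at or below each log2 ratio of FPKM + 1, for all 8658 expressed genes and for the 7 smooth-muscle-type, 4 leukocyte-enriched and 30 general members, with dashed lines at 1.5-fold. The smooth-muscle-type curve starts at 0.52, to the right of most expressed genes, while the general members run from -0.50 to 2.24.

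Because every gene in a library shares its total, levels of relatives were also set against each other within each library. The length behind a gene's FPKM exceeded its principal transcript by more than 1.5 times for 29 of the 41 members (16538 against 1898 bases for Tpm1), so levels of different genes are compared here as counts per kilobase of the principal transcript, scaled as CPM. On this scale Tmsb4x (1295 and 2825), Tmsb10 (1612 and 1315) and Actb (1159 and 1120) were the most abundant members, while Acta2 was at 11.6 and 38.2 and Tagln at 12.6 and 71.5. Acta2 made up 0.731% of the summed level of Acta2, Actb and Actg1 in the control library and 2.20% in the AclyE14-ASO library. Cytoplasmic actin thus remained the bulk of actin mRNA in both libraries.

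Within families, the ratio of Tagln to Tagln2 went from 0.0356 to 0.214, a 6.02-fold difference (5.28 to 6.87, a Wald interval for counting error, as for the next 5 values). The ratio of Myl9 to Myl6 differed 3.96-fold (2.88 to 5.45), that of Acta2 to Actb 3.41-fold (3.01 to 3.86) and that of Tpm2 to Tpm4 2.94-fold (2.37 to 3.64). Tmsb4x relative to Tmsb10 went from 0.804 to 2.15, so the order of these genes was inverted between the libraries (2.67-fold, 2.59 to 2.76). The ratio of Cnn1 to Cnn2 differed 1.31-fold with an interval of 0.812 to 2.11 that includes no difference. These ratios do not depend on how the libraries are scaled to each other.

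**Figure D4:**
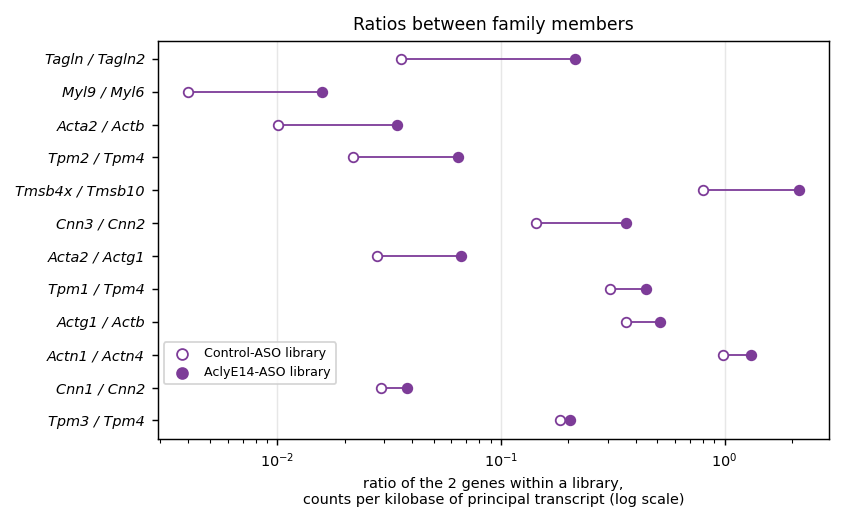
Ratio of 2 family members within each library (log axis, counts per kilobase of principal transcript), with open circles for Control-ASO and filled circles for AclyE14-ASO. Of the 12 member pairs drawn, Tagln / Tagln2 moves farthest, from 0.0356 to 0.214, and Tmsb4x / Tmsb10 crosses from 0.804 to 2.15.

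Markers of other cell types moved with the smooth-muscle-type genes. Summed over the 7 smooth-muscle-type members the level was 37.1 FPKM in the Control-ASO library and 141 FPKM in the AclyE14-ASO library. The 16 fibroblast markers summed to 28.1 and 126 FPKM. Of these, 13 were measured and all 13 were higher, beside 7.03% higher and 8.48% lower among all expressed genes. Only 5 of the 13 were at 1 FPKM or more in the control library, and these 5 were all higher. Of the markers averaging under 1 FPKM, Col3a1 had 18 and 193 counts (ratio 11.95, 7.36 to 20.6), while Lum and Postn stayed at 6 counts or fewer. Of the 14 further smooth muscle and pericyte markers only Des (desmin, 141 and 423 counts) and Smtn (smoothelin, 52 and 138 counts) were measured. The list summed to 3.12 and 11.2 FPKM, and 9 of its genes had 0 counts in the control library and 3 in the AclyE14-ASO library. Its defining gene Myh11, the smooth muscle myosin heavy chain, had 0 and 2 counts, and Myocd, the smooth muscle cofactor of SRF, had 0 in both (0 counts allow up to 3, or 0.211 and 0.235 CPM). Pdgfrb had 11 and 77 counts (ratio 7.80, 4.13 to 16.3), Actg2 0 and 16, and Mylk and Cspg4 0 and 10 each. Across the list the counting interval lay above an even ratio for 6 genes, below it for 0, and included it for 5. In bulk RNA, more cells of another type and more RNA of a gene per cell cannot be told apart, and the part of such cells in the higher smooth-muscle-type levels was not tested.

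The remaining marker lists did not move alike. The 8 endothelial markers summed to 12.7 and 8.23 FPKM, most of it Kdr (11.1 and 5.49). Kdr was lower (ratio 0.496, 0.452 to 0.543), which brought the sum down. Cdh5 (62 and 100 counts, ratio 1.798, 1.297 to 2.51) and Vwf (148 and 188 counts, ratio 1.42, 1.14 to 1.77) went the other way. Pecam1 had 4 and 2 counts and Tie1 0 and 1, with Tek, Emcn and Cldn5 at 0 counts in both libraries. The 8 platelet and megakaryocyte markers summed to 1.48 and 4.17 FPKM, most of it Pf4. Pf4 was higher, with 25 and 71 counts (ratio 3.17, 1.98 to 5.21). The 8 striated muscle markers summed to 2.29 and 2.19 FPKM. The 8 dendritic cell markers summed to 121 and 134 FPKM, nearly all of it Itgax, which macrophages express too.

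**Figure D5:**
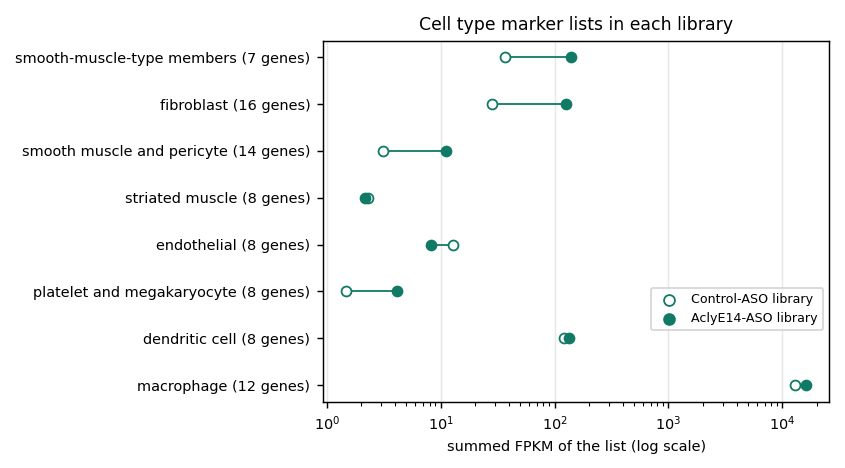
Summed FPKM (log axis) of the smooth-muscle-type members and of 7 cell type marker lists in the Control-ASO (open) and AclyE14-ASO (filled) libraries. The fibroblast list moves from 28.1 to 126 FPKM, beside 37.1 to 141 FPKM for the smooth-muscle-type members, and the macrophage list is far higher in both libraries.

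Genes for SRF, its partners and known targets moved in both directions. Srf, the serum response factor gene, was lower, at 16.1 FPKM from 938 counts and 6.78 FPKM from 354 counts (ratio 0.421, 0.371 to 0.476). Its cofactors Mrtfa and Mrtfb were at 414 and 268 counts (ratio 0.722, 0.617 to 0.844) and at 441 and 243 counts (ratio 0.614, 0.523 to 0.720). Ccn1 and Ccn2, matricellular genes known as targets of SRF and of the TEAD coactivator YAP, were higher, at 6.62 and 29.9 FPKM (ratio 4.52, 3.85 to 5.32) and at 3.68 and 14.8 FPKM (ratio 4.02, 3.49 to 4.64). The ternary complex factors, another family of SRF partners, were at 247 and 510 counts for Elk3 (ratio 2.30, 1.97 to 2.69), 179 and 204 for Elk1 (ratio 1.27, 1.03 to 1.56) and 249 and 265 for Elk4 (ratio 1.19, 0.994 to 1.42). Of the 14 symbols on this list, 10 were found and 9 were measured. Of these 9 genes, 4 were higher (Ccn1, Ccn2, Elk3 and Fhl2) and 1 was lower (Srf), beside 7.03% higher and 8.48% lower among all expressed genes.

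The CArG box, the motif that SRF binds, was looked for by name in RefSeq promoters (GRCm38.p6, 250 bases before to 50 after a gene's start). Only exact matches were counted: CC, then 6 bases of A or T, then GG. Boxes with a mismatch were not looked for, so a gene without a match is not shown to lack a box. The motif is its own reverse complement, so 1 scan covers both strands. Promoters were listed for 39 of the 41 members, and 6 of these genes (15.4%) held a box, against 1.81% of all genes in the table. They were Myl9, Actg1, Cnn2, Vcl, Arpc4 and Myl6, so 1 of the 6 smooth-muscle-type genes with a promoter was among them. With its flanking bases, the Myl6 match overlaps an annotated exon of Myl6. The Arpc4 match begins at the first scanned base, 250 bases before the start. Tagln and Actb were not scanned. The count ratios of these genes ran from 0.702 (Vcl) through 0.976 (Myl6), 1.08 (Arpc4), 1.38 (Actg1) and 1.55 (Cnn2) to 3.87 (Myl9). Boxes upstream of the highest and the lowest ratio and of 2 between them are shown with up to 15 flanking bases on each side, 5′ to 3′ on the gene's strand, with the box in capitals. That of Myl9 begins 161 bases before the start (chr2:156775288-156775327, plus strand), that of Cnn2 56 bases (chr10:79988529-79988568, plus), that of Actg1 90 bases (chr11:120348561-120348600, minus) and that of Vcl 227 bases (chr14:20929156-20929195, plus).

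Myl9: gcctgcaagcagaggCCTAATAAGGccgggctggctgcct
Cnn2: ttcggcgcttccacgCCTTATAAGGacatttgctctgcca
Actg1: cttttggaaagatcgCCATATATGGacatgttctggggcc
Vcl: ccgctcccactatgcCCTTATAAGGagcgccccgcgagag

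Cnn2 and Vcl held the same 10 bases and lay on opposite sides of an even ratio. A match is a sequence feature and was not measured as a binding site.

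Other regulators of actin, a list of 88 genes beside the members, showed no common direction. Of the 76 measured, 8 were higher and 5 lower, beside 7.03% and 8.48% of all expressed genes, so the counts were near the background. The median log2 ratio was -0.02, against -0.13 for all expressed genes. By log2 ratio of FPKM + 1 the ends of the list were Rac1, a GTPase that drives lamellipodia (11.2 and 42.5 FPKM, ratio 3.80, 3.54 to 4.08), and Fermt2, the kindlin of adherent non-blood cells (0.937 and 4.64 FPKM, ratio 4.95, 3.70 to 6.72), against Swap70 (17.97 and 8.67 FPKM, ratio 0.483) and the class I myosin Myo1e (18.4 and 10.6 FPKM, ratio 0.579). By count ratio, among the measured genes, the low genes Dbn1 (5.14) and Flnc (4.18) were also above Rac1. Parva, which averaged under 1 FPKM and was not measured, had a ratio of 8.11. Rac1 overlaps Daglb on the other strand (784 and 896 counts). Rhoc, the most abundant gene of the list, was at 233 and 226 FPKM. The actin-related core subunits of Arp2/3, Actr2 and Actr3, were at 108 and 87.6 FPKM and at 105 and 63.3 FPKM (ratio 0.605, 0.587 to 0.623).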

How the data were processed

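Gene counts and FPKM of 2 libraries were used as deposited. Per the file headers, the authors' table gives raw counts and FPKM per Ensembl gene. HISAT2, StringTie 1.3.0, edgeR and mm10 are named in the submitters' processing notes without a role, and the sources used here do not give the read counting, its strand setting or the gene annotation. The deposited FPKM values equal counts per library total and per 1 fixed length per gene, often longer than 1 transcript, which lowers the FPKM of genes with many isoforms and adds weight to the pseudocount.

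Symbols came from GENCODE M21 (GRCm38) for 34344 of the identifiers. Log2 ratios used a pseudocount of 1 FPKM and a filter on the mean level of 1 FPKM. The principal transcript was the best-ranked APPRIS coding transcript. Overlaps and 50-base windows were read from GENCODE M21, and promoters from RefSeq (GRCm38.p6). edgeR 4.0.16 (R 4.3.3) gave the TMM factors. The other steps ran in Python 3.11.15 with pandas 2.3.3, SciPy 1.17.1 and NumPy 2.4.6. The calculations were tested on simulated counts with counting error only. That test checks the calculations and not the spread between cultures. Intervals cover counting error only, because each group had 1 library. The reads carry no molecular identifiers, so duplicate reads could not be told from separate molecules and the intervals may be too narrow. The members and lists were chosen with earlier results of these data known. Values were named for all smooth-muscle-type and leukocyte-enriched members, for others past 1.5-fold and for the 5 most abundant. Further names were picked with the values in view. Alternatives were other pseudocounts, filters, scalings, thresholds and summing of overlapping genes.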

Additional observations from a re-analysis of the deposited data

How the results depend on the processing

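No paired analysis was possible because each group had 1 library, and for the same reason no library could be left out. No member was lower by 1.5-fold under any alternative run, and no called member changed sign. The count of 11 higher members was 8 to 14 under the pseudocounts, centring, scalings and summed counts tried, 7 among the 36 members averaging 5 FPKM or more, and 2 at a limit of 4-fold (Tagln and Fscn1). With a pseudocount of 5 FPKM, 3 of the 7 smooth-muscle-type members were higher (Acta2, Myl9 and Tagln), and Cald1 (0.46) and Tpm2 (0.56) were not. Centring on the median gene shifts all ratios by 0.13 and TMM by 0.10. Actb, Myl6, Vim and Tagln2, all between -0.08 and -0.03, turned positive when centred.

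The smooth-muscle-type median (1.15) and its difference from the general median (1.02) moved with the pseudocount and the scale. They were 1.71 and 1.56 with 0.1 FPKM, 0.56 and 0.45 with 5 FPKM, 1.77 and 1.53 as CPM with TMM, 1.68 and 1.53 with same-strand overlapping genes summed, and 1.65 and 1.53 among members averaging 5 FPKM or more. Under alternatives chosen after seeing the data they were 1.68 and 1.53 with genes of shared sequence summed, 1.64 and 1.49 per kilobase of principal transcript, 1.72 and 1.57 with no pseudocount, and 1.48 and 1.34 for members at 1 FPKM or more in the control library. The leukocyte-enriched and general medians were 0.44 and 0.27 when centred, 0.42 and 0.23 with TMM on FPKM, and 0.42 and 0.25 as CPM with TMM. Depth limits Cnn1, with 27 and 49 counts, and 39 of the 41 members had at least 100 counts in both libraries.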

Other observations

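Several actin regulators come as a broadly expressed form and a form known from blood cells. These pairs were put together after their values were seen, and they did not all move the same way. Parva, the broadly expressed alpha-parvin of focal adhesions, had 33 and 240 counts (ratio 8.11, 5.62 to 12.05), while the leukocyte form Parvg had 473 and 277 counts (ratio 0.653, 0.561 to 0.759). Fermt2, kindlin-2, had 57 and 253 counts, whereas the blood cell kindlin Fermt3 had 797 and 638 counts (ratio 0.892, 0.803 to 0.992). Pls3, the plastin of solid tissues, had 245 and 557 counts (ratio 2.53, 2.18 to 2.96), above the ratio of 1.55 for its leukocyte relative Lcp1.

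Other pairs ran the other way. Arpc1a, the broadly expressed Arp2/3 subunit, had 1154 and 841 counts (ratio 0.812, 0.742 to 0.889), below the ratio of 1.29 for Arpc1b. Parvb, a parvin also known outside blood cells, was lower at 996 and 550 counts (ratio 0.616, 0.554 to 0.684). Coro1b and Coro1c, broadly expressed coronins, had ratios of 0.786 and 0.758, below that of Coro1a at 1.09.

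Apart from these pairs, Flnc, filamin C of muscle, had 69 and 259 counts (ratio 4.18), and Myh10, non-muscle myosin IIB, had 80 and 266 counts (ratio 3.71), against 1.202 and 1.36 for their broadly expressed relatives Flna and Myh9. Drebrin (Dbn1, 51 and 235 counts) and cortactin (Cttn, 206 and 430 counts) were also higher in the AclyE14-ASO library. Parva, Fermt2, Pls3, Flnc, Myh10, Dbn1 and Cttn were at 6.30 FPKM or less in both libraries, and Parva and Myh10 averaged under 1 FPKM. Fibroblast markers were higher in the AclyE14-ASO library too (28.1 and 126 FPKM in sum), and their part in these ratios was not tested.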
